A study of Mus musculus with 4 samples.

Results

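The nuclear genes of the mitochondrial respiratory chain and ATP synthase were read in 4 RNA libraries of mouse Th2 cells, a class of helper T cell known for the cytokines interleukin-4 and interleukin-13. The members were chosen by gene symbol: every protein-coding gene whose name begins with the Nduf (A, B, C, S or V series), Uqcr, Cox4 to Cox8 or Atp5 stem, with Sdha to Sdhd, Cyc1 and Cycs. This gave 86 genes of 50600 in the tables and of 21764 that are protein-coding. Complex I had 37 of them, complex II 4, complex III 9, complex IV 18, ATP synthase (complex V) 17, and cytochrome c 1. Assembly factors of the Ndufaf series and Ndufab1 do not match these stems. Atp5s, which encodes a coupling factor related to ATP synthase and not a core subunit, does.

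All libraries came from 1 group: primary cells of strain C57BL/6NJ under the label T-helper 2 cell, in 4 biological replicates with separate biosamples and 1 donor identifier. The file headers name the 48-hour point of a course that also covers Th1 cells. The labels give no sex or age, and no genetic change or drug. No conditions could be compared with a single group, and the spread between libraries may be technical as well as biological. The labelled cell type was read from fixed markers: Cd4 had 72, 59, 54 and 68 counts in replicates 1 to 4, Trbc2 27, 21, 6 and 7, Gata3 44, 35, 21 and 20, and Il4 38, 27, 37 and 24. The NK cell gene Klrb1c had 0 counts in all libraries, and the B cell gene Cd79a had 14, 8, 4 and 7. T cell markers did not stand at like levels: Cd3e had 18, 20, 6 and 9 counts and Cd247 1360, 1364, 1278 and 972. Not all of the fixed markers are listed.

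Respiration passes electrons from NADH through complex I, and from succinate through complex II, to ubiquinone, then through complex III and cytochrome c to complex IV, where oxygen is reduced. Complexes I, III and IV pump protons across the inner mitochondrial membrane, and ATP synthase lets them flow back to make ATP. Most subunits are encoded in the nucleus and imported, while a few core subunits come from the mitochondrial genome. T cells leaving the resting state enlarge their mitochondria and raise both respiration and glycolysis.

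The values are counts of read pairs that the deposited tables assign to the exons of a gene on 1 strand, and TPM, which is the count divided by exon length and scaled to the same sum in every library. The totals were 1785970 to 2271993 counts per library, so that 0 counts in a library allows up to 3 counts, or 1.32 to 1.68 CPM (counts scaled to a fixed library total). Where exons of a second gene lie on the other strand, the 2 rows have to be read together. In many such pairs here the row on the other strand held far more counts, so a count cannot be taken as the level of the named gene's own transcript. The tables were counted for 1 strand, and the sources used here do not say which strand the library kit reads. Were it the other one, a row's count would come from transcripts of the opposite strand, for members and opposite rows alike. This was not tested, and it bears on every level below and on the marker counts above. Every level given is the level assigned to the row, and in bulk RNA fewer cells and less RNA per cell cannot be told apart.

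Of the 86 genes, 23 (26.7%) shared at least 1 exon base with a row on the other strand, against a background of 22.1% of all protein-coding genes. These 23 genes formed 27 pairs with 5728 shared bases, summed over pairs. In the annotation of the respiratory genes, 2098 of these bases lie in 5′ UTR, 1334 in 3′ UTR, 969 in coding sequence and 1327 in other exons. Coding bases were shared in 11 pairs. The stretches below show where the coding exon of a respiratory gene is also exon of a non-coding row on the other strand. Each is 1 stretch per gene (mm10, transcripts of GENCODE vM21), written 5′ to 3′ on the strand of the respiratory gene, with bases that both rows claim in capitals.
Atp5l, 52 shared bases with Gm30934 at chr9:44920610-44920661, minus strand, from the start of the coding sequence: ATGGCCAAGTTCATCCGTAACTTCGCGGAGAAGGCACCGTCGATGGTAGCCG
Cox5a, 111 shared bases with Gm26631 at chr9:57531669-57531779, plus strand: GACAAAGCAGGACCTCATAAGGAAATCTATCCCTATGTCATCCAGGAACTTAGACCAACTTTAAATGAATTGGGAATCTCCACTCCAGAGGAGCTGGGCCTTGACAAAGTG
Ndufa9, 67 shared bases with 1700018A23Rik at chr6:126824936-126825002, minus strand: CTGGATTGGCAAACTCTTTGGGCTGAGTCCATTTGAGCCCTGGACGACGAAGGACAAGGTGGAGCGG
Ndufb2, 84 shared bases with Gm16272 at chr6:39592629-39592712, plus strand: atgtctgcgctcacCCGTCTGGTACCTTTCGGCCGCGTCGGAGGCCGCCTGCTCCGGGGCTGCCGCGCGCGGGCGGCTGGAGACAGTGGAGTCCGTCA
Ndufs1, 146 shared bases with Ino80dos at chr1:63157132-63157277, minus strand: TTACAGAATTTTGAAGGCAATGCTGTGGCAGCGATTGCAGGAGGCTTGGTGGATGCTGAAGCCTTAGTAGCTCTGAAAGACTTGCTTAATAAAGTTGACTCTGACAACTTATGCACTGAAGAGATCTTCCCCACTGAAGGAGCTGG

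In these 5 loci the non-coding row held nearly all of the counts. Cox5a, a subunit of cytochrome c oxidase, had 12, 7, 4 and 7 counts in replicates 1 to 4. Gm26631, opposite its 3′ exons, had 4121, 3914, 3816 and 2734, which is 343 to 954 times as many. Ndufa9, an accessory subunit of complex I, had 6, 8, 4 and 5 counts, and 1700018A23Rik, which lies within its span, had 1485, 1310, 1444 and 972. The groups of values did not overlap in either pair.

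The other loci with a printed stretch gave the same order. Ndufs1, the large iron-sulfur subunit of complex I, had 29, 24, 14 and 10 counts against 1387, 1398, 1386 and 926 for Ino80dos. Ndufb2 had 29, 22, 23 and 14 against 661, 616, 602 and 439 for Gm16272. Atp5l, subunit g of ATP synthase, had 1, 0, 1 and 1 against 304, 288, 266 and 201 for Gm30934. The sixth gene with a non-coding row as its main partner was Atp5o, which encodes the stalk subunit named for oligomycin sensitivity: it had 24, 23, 8 and 13 counts, and D430001F17Rik 1935, 1908, 1962 and 1556. In all 6 the non-coding row was higher in each of the 4 libraries.

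For 17 of the 23 genes the opposite row with the most counts was itself protein-coding, and it was higher in every library in 12 of them. Cox4i1, the regulatory subunit of complex IV found in most tissues, had 24, 20, 14 and 16 counts. Emc8, an ER membrane complex gene that shares 154 bases of 5′ UTR with it (chromosome 8, 120668222 to 120668375), had 2707, 2680, 2681 and 1960. Uqcrc2, a core protein of complex III, had 27, 17, 16 and 15 counts against 2721, 2558, 2504 and 1758 for Pdzd9, which shares 504 bases at its 3′ end (chromosome 7, 120659021 to 120659524). Pdzd9 thus stood at 787 TPM ± 51.9 and Uqcrc2 at 5.29 ± 1.20 (SD, n = 4).

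Complex I genes showed the same order opposite coding genes. Ndufb5 had 7, 7, 3 and 7 counts, and Mrpl47, a mitochondrial ribosomal protein gene that shares 616 bases with it, had 2901, 2873, 2874 and 2036. Ndufb6 had 6, 7, 5 and 4 against 1439, 1391, 1341 and 872 for Smim27. Ndufb11 had 17, 19, 21 and 19 against 308, 248, 255 and 177 for Rbm10, an RNA-binding protein gene. Ndufa13, also known as a growth suppressor, had 22, 23, 14 and 17 counts, and Tssk6, a kinase gene known from testis, had 80, 89, 90 and 72. In each of these pairs the values of the 2 rows were apart in all libraries.

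The remaining pairs ran from wide to mixed. Uqcrb had 16, 13, 5 and 10 counts against 965, 1002, 1058 and 741 for Gm10767. Atp5d, subunit delta of ATP synthase, had 35, 46, 31 and 33 against 417, 404, 394 and 273 for Cbarp. Ndufa4l2, a paralogue of Ndufa4 known from hypoxia, had 6, 10, 6 and 2 against 68, 42, 17 and 40 for the serine hydroxymethyltransferase gene Shmt2, with only 32 shared bases. Ndufa3 and Tfpt share 4 bases and did not keep an order: 5, 11, 7 and 10 counts against 15, 9, 14 and 10.

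In 4 genes, Atp5f1, Cox6c and Ndufa2 among them, the respiratory row was higher than its main opposite row in every library. Atp5f1, subunit b of the stator stalk, had 1672, 1641, 1628 and 1171 counts. Wdr77, a methylosome gene that shares 337 bases with its 5′ UTR in 2 stretches (chromosome 3, from 105959369), had 7, 7, 3 and 8. Cox6c, a small subunit of complex IV, had 218, 196, 228 and 169, and Vps13b, whose coding exon lies over 250 bases of the Cox6c 3′ UTR (chromosome 15, 35926041 to 35926290), had 15, 22, 8 and 6. Ndufa2 had 102, 66, 99 and 63 against 14, 15, 15 and 8 for Tmco6. Cox6a2 (0 in all) and Itgad (2, 1, 2 and 1) were both at or under the floor of 3 counts, and their order carries no weight.

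**Figure D1:**
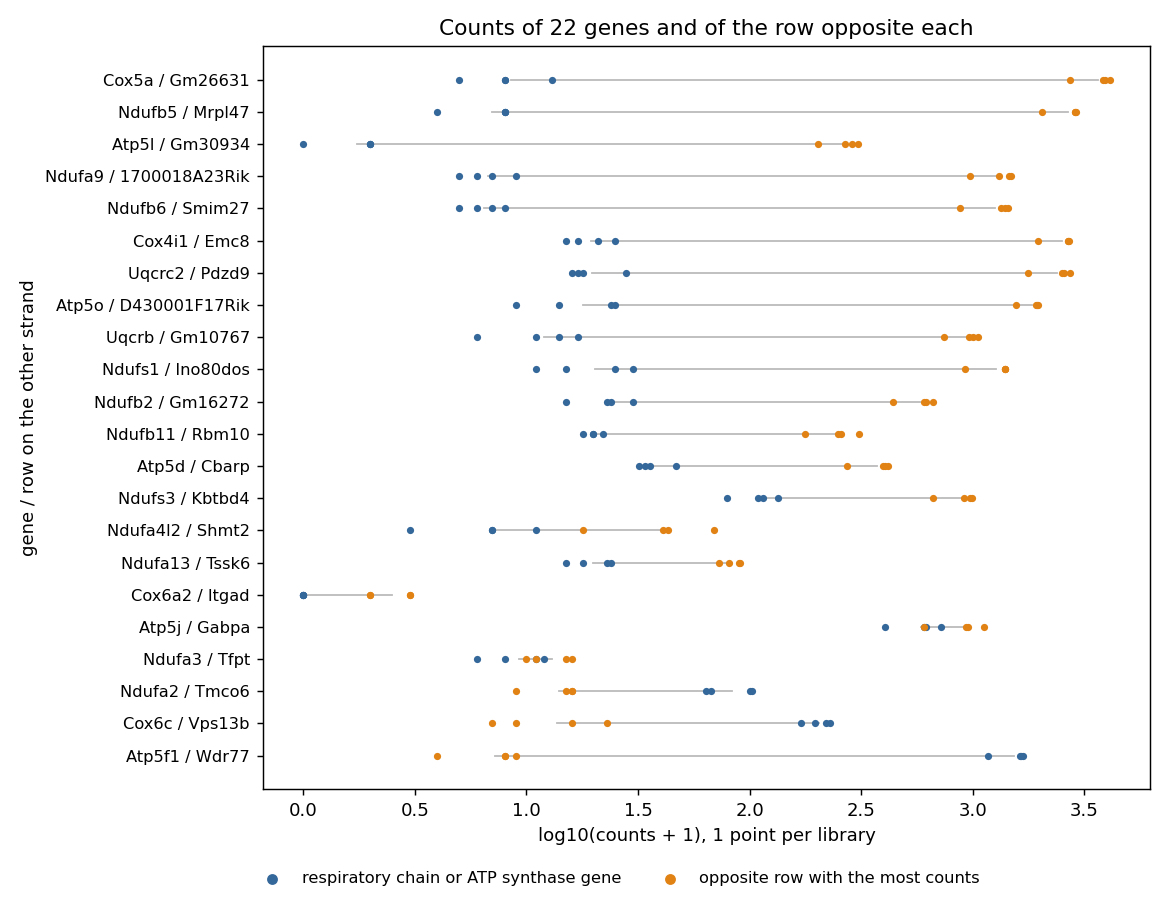
Counts on a log10(counts + 1) axis of 22 of the 23 respiratory genes with an exon overlap (blue) and of the opposite row with the most counts (orange), 1 point per library and a grey line between the means. In the upper rows the opposite row lies far to the right, as for Cox5a (4 to 12 counts) and Gm26631 (2734 to 4121), and in the lowest row the order is turned, with Atp5f1 at 1171 to 1672 and Wdr77 at 3 to 8.

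Counted over all 23 genes, the opposite row was higher in every library in 18, the respiratory row in 4, and neither in 1. The 18 take in Cox6a2, whose order carries no weight. Among the 4801 protein-coding genes with an overlap, the background by counts was 49.0% for the opposite row and 24.2% for the gene itself. Of the 4801, 870 had 0 counts in all libraries, against 1 of the 23. The median was 1.35 TPM over the 4801 and 6.01 over the 23, so these shares do not compare genes of like level. The opposite row was over 10 times higher on average (log2 scale, 0.5 added to each count) in 13 genes and over 100 times in 8. The share over all coding genes with an overlap is not given for these cutoffs, so they cannot be read as particular to these genes. Summed over the 23 genes, the opposite rows held 23662, 22616, 22655 and 16053 counts and the respiratory rows 3010, 2912, 2968 and 2087, a ratio of 7.63 to 7.86. With 14 genes whose opposite row has no other partner, 9 had the higher opposite row. The opposite row was higher in 11 of 13 head-to-head pairs, which overlap at their 5′ ends, and in 5 of 8 tail-to-tail pairs. The background is not split by geometry or by type of opposite row.

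Kbtbd4 and Gabpa were the opposite rows of 2 genes that were themselves high. Ndufs3, a core subunit of complex I, had 114, 133, 108 and 78 counts, and Kbtbd4, a ubiquitin ligase adaptor gene, had 993, 913, 968 and 660, with 88 bases shared at their 5′ ends. Atp5j, coupling factor 6 of ATP synthase, had 619, 606, 718 and 405. Gabpa, on the other strand from the same start region (397 shared bases, chromosome 16, 84834925 to 84835543), had 1116, 928, 955 and 603. Gabpa encodes the DNA-binding subunit of an ETS-family factor known to act on promoters of respiratory genes. Both rows of this pair were high in all libraries, and Gabpa had more counts in each. By TPM, which divides by exon length, the order of the means was turned: 134 ± 17.0 for Atp5j and 113 ± 14.6 for Gabpa (SD, n = 4).

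By assigned level, 65 of the 86 genes (75.6%) reached 1 TPM in all libraries, against a background of 21.8% of protein-coding genes. More than 3 counts in all libraries were found for 56, against 26.5%, and 5 had 0 counts throughout. The median over the genes was 5.27 TPM (quartiles 2.31 and 8.88) and 8.50 counts, and 11 had at most 3 counts in every library. The median over all protein-coding genes was 0.115 TPM. Together the 86 genes held 0.161% to 0.180% of the counts of a library. Of 27 core or cofactor-binding subunits, 21 reached 1 TPM in all libraries.

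The 5 highest genes by TPM were Atp5f1 (268 ± 11.6), Atp5j (134 ± 17.0), Ndufa2 (104 ± 17.6), Cox6c (41.1 ± 2.06) and Ndufs3 (35.8 ± 4.96; SD, n = 4). Each of the 5 overlaps a coding gene on the other strand. Named together after their values were seen, they held 70.1% ± 5.53 of the counts of all 86 genes, and Atp5f1 alone 42.7% ± 2.29. The 23 genes with an overlap held 73.8%, 77.1%, 83.2% and 72.7% in replicates 1 to 4. Outside those 5, the other 18 genes with an overlap had at most 46 counts in any library.

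Genes without an overlap had a narrower range. The means of these 63 genes ran from 0 TPM to 22.8 for Atp5b, with a median of 4.75 TPM and 7 counts. For the 16963 protein-coding genes without an overlap the median was 0.0192 TPM and 14.7% reached 1 TPM in all libraries, against 71.4% of these 63. For the 4801 coding genes with an overlap 46.8% did, against 87.0% of the 23.

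**Figure D2:**
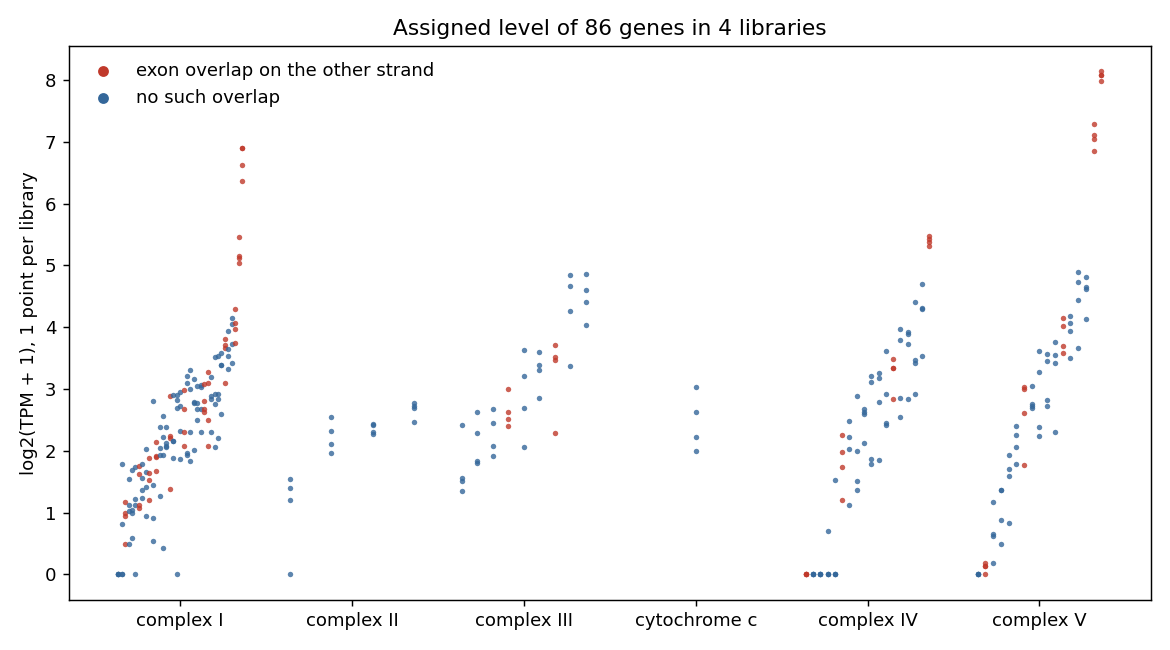
Assigned level as log2(TPM + 1) of each of the 86 genes, ordered by mean within its complex, with 1 point per library, red for genes with an exon overlap on the other strand and blue for the others. The highest points of complexes I, IV and V are red (Ndufa2 and Ndufs3, Cox6c, Atp5f1 and Atp5j). The highest means of blue genes are those of Atp5b and Uqcrh, at 22.8 and 21.8 TPM. Single blue points reach higher, as for Atp5a1 at 28.7 TPM in replicate 1.

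In complex I, the NADH-oxidising entry of the chain, 27 of 37 genes reached 1 TPM in all libraries. After Ndufa2 and Ndufs3 the third highest was Ndufb11 at 15.3 TPM ± 2.57. Of the core subunits that carry flavin and iron-sulfur clusters, Ndufs8 stood at 5.40 ± 2.93, Ndufv2 at 2.93 ± 1.93, Ndufv1 at 1.84 ± 0.489, Ndufs1 at 1.68 ± 0.642 and Ndufs7 at 1.14 ± 0.622 (SD, n = 4). Ndufv2 had 11, 8, 1 and 11 counts and Ndufs7 5, 1, 3 and 2, so these levels rest on few read pairs. Ndufb4 had 0 counts in all libraries. Ndufb4 has similar copies elsewhere in the mouse genome, so its count is uncertain. The 6 pseudogene rows named after members had at most 2 counts in any library. None of them is named after Ndufb4 or another complex I gene, so they do not bear on the copies of Ndufb4.

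Complex II, which oxidises succinate and is also part of the citric acid cycle, had no gene with an overlap. Sdha, the flavoprotein, had 33, 32, 26 and 24 counts (5.36 TPM ± 0.557). Sdhb, the iron-sulfur subunit, had 13, 14, 13 and 11 (4.14 ± 0.287). The membrane anchors were lower or less even: Sdhd had 9, 7, 6 and 4 (3.76 ± 0.851), and Sdhc 8, 6, 0 and 7 (1.21 ± 0.844; SD, n = 4).

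In complex III, which passes electrons from ubiquinol to cytochrome c, all 9 genes reached 1 TPM in all libraries. Uqcrh, the hinge protein beside cytochrome c1, had 38, 41, 28 and 39 counts (21.8 TPM ± 5.29), and Uqcr10 had 16, 23, 8 and 16 (19.9 ± 8.09). Uqcrb followed at 9.13 ± 3.60. Cyc1, cytochrome c1, stood at 8.93 ± 2.03, Uqcrc1 at 3.97 ± 1.17 and the Rieske iron-sulfur protein gene Uqcrfs1 at 3.54 ± 1.28 (SD, n = 4). Cycs, the soluble cytochrome c that also takes part in apoptosis, had 37, 25, 15 and 14 counts (4.75 ± 1.86).

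In complex IV, where oxygen is reduced, 13 of 18 genes reached 1 TPM in all libraries. Below Cox6c, Cox6b1 had 20, 25, 11 and 15 counts (18.2 TPM ± 5.87) and Cox6a1 7, 10, 10 and 16 (11.6 ± 5.94). Cox4i1 stood at 8.65 ± 1.76, Cox5b at 6.30 ± 2.71 and Cox5a at 2.59 ± 1.04 (SD, n = 4). The low end held isoforms known from muscle or testis. Cox6a2 of heart and skeletal muscle, and Cox7b2 and Cox8c of testis, had 0 counts in all libraries. Cox6b2 of testis had 0, 1, 0 and 0, and Cox8b of muscle 0, 0, 1 and 0. Not all such isoforms stood there. Cox7a1 of heart and muscle had 2, 2, 6 and 5 counts and averaged 5.25 TPM ± 3.13 (SD, n = 4), above Cox5a.

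In ATP synthase 12 of 17 genes reached 1 TPM in all libraries. The catalytic head genes had no overlap: Atp5b, subunit beta, had 154, 142, 103 and 129 counts (22.8 TPM ± 4.45), and Atp5a1, subunit alpha, 136, 92, 54 and 90 (21.6 ± 7.39). Atp5d stood at 13.7 ± 2.73, Atp5c1 of the central stalk at 9.22 ± 3.72 and Atp5e at 1.97 ± 0.859. Atp5f1, from the stator stalk, was thus assigned 268 TPM on average, against 22.8 and 21.6 for subunits beta and alpha. The 3 genes of the ring subunit c differed: Atp5g3 had 36, 31, 18 and 15 counts (8.16 ± 2.69), Atp5g2 4, 2, 1 and 3 (1.10 ± 0.582) and Atp5g1 4, 4, 1 and 7 (0.629 ± 0.468; SD, n = 4). Atp5s had 0 counts in all libraries.

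Ratios of paralogues were taken as log2 of TPM + 1 within each library and tested by an exact two-sided sign-flip test over 9 pairs, where the smallest p that 4 libraries allow is 2 of 16 sign patterns, above 0.05. The form found in most tissues was higher in 4 of 4 libraries for Cox6b1 over Cox6b2 (4.03 ± 0.365), Cox6a1 over Cox6a2 (3.55 ± 0.620), Cox8a over Cox8b (2.91 ± 1.23) and Cox4i1 over Cox4i2 (0.75 ± 0.423; SD, n = 4). Among the subunit c genes Atp5g3 was higher than Atp5g1 (2.49 ± 0.584) and than Atp5g2 (2.12 ± 0.474), also in 4 of 4, and Atp5g2 than Atp5g1 (0.37 ± 0.256). The lower gene had 0 counts in most libraries for Cox6b2, Cox6a2 and Cox8b, so the value added sets the size: with 0.1 in place of 1 these ratios were 6.73, 6.75 and 5.38. That of Atp5g2 over Atp5g1 was then 0.82. Each of these 7 had that smallest exact p, adjusted to 0.161 over the 9 pairs. When a gene under the floor was put at 3 counts, Cox6a1 was at least 2.26 to 5.17-fold higher than Cox6a2 per library. Cox8a over Cox8b then ran from 0.881 to 2.20-fold and Atp5g2 over Atp5g1 from 0.978 to 2.93-fold, so those orders were not detectable at this depth.

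Cox7a2 over Cox7a1, the form of heart and muscle, did not keep a direction: the log2 ratio was 1.81, 0.59, -0.70 and -0.29 (exact p = 0.75 by the sign-flip test, adjusted 0.75), with Cox7a2 at 16, 6, 6 and 7 counts and Cox7a1 at 2, 2, 6 and 5. Ndufa4, now known to belong to complex IV, over Ndufa4l2 was 0.62 ± 0.750, positive in 3 of 4 libraries (exact p = 0.25, adjusted 0.281).

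The complexes took unequal shares of the summed TPM of the 86 genes. ATP synthase held 49.0% ± 3.14, complex I 29.1% ± 1.16, complex IV 12.5% ± 1.12, complex III 7.64% ± 1.72, complex II 1.36% ± 0.0911 and cytochrome c 0.442% ± 0.151 (SD, n = 4). These shares also follow the number of genes in each complex, and no test was made of them. Ndufa4 was counted with complex I by its symbol. Counted with complex IV, it left complex I at 28.5% and put complex IV at 13.1%. Atp5f1 made up 51.8% ± 1.32 of the ATP synthase share. When only genes without an overlap were used, ATP synthase fell to 25.4%, complex I stood at 30.3%, complex IV at 21.5%, complex III at 17.7% and complex II at 3.90%. The order of the complexes thus changed, with complex I first.

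**Figure D3:**
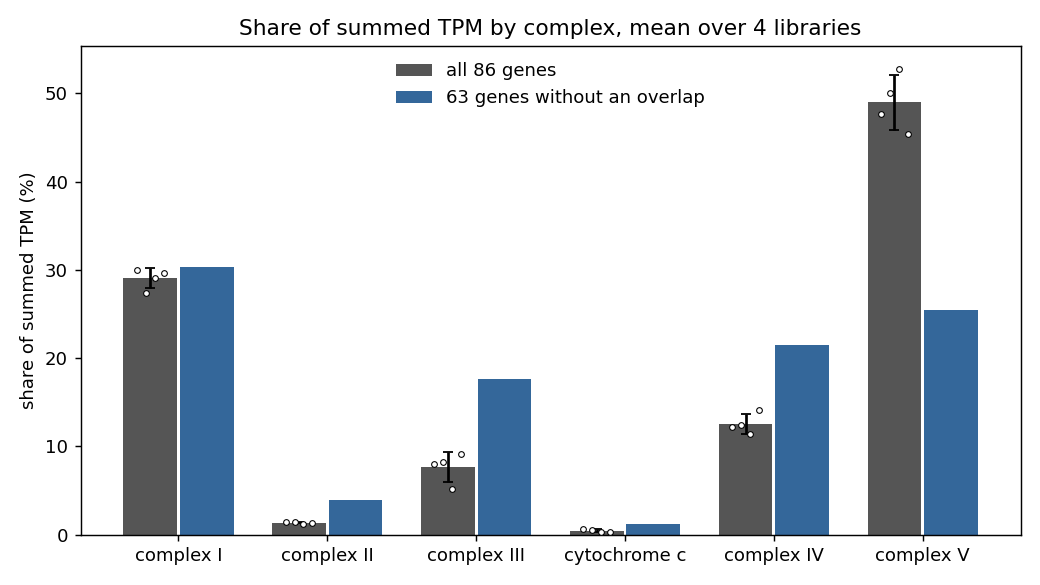
Share of summed TPM (%) by complex, for all 86 genes (grey, mean with SD bars and 1 white point per library) and for the 63 genes without an exon overlap (blue, mean over 4 libraries). The grey bar of complex V stands at 49.0% and the blue one at 25.4%, while complex I stays near 29.1% and 30.3%.

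No gene of the chain was called for variation between libraries. In edgeR's goodness-of-fit test with Benjamini-Hochberg adjustment, 0 of the 28 genes that passed the filter on low counts had an adjusted p under 0.05, beside a background of 0.454% of 5064 genes. At an unadjusted p under 0.05 there were 2, Atp5a1 (edgeR adjusted p = 0.375) and Atp5c1 (edgeR adjusted p = 0.890). Over the other settings of that test the lowest adjusted p of any member ran from 0.0683, with a common dispersion, to 1.00. DESeq2 marked 0 of the 28 as dispersion outliers. The other 58 genes did not enter the test, and with few counts a change of moderate size in them would not have been seen.

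The summed CPM of genes with an overlap and of genes without one did not follow the same course over the libraries. The 23 with an overlap summed to 1325, 1379, 1346 and 1169 CPM in replicates 1 to 4. The 63 without one summed to 471, 410, 273 and 440 CPM, and 38 of the 59 with any count had their lowest TPM in replicate 3. The like share over all coding genes without an overlap is not given, so the 38 cannot be set against a background. Over the whole table, protein-coding genes without an overlap held 6.90%, 6.24%, 4.93% and 6.13% of all counts. Set against those genes, the 63 held 0.683%, 0.656%, 0.553% and 0.717%. Replicate 3 was lowest in each of these measures for genes without an overlap. By median TPM it was lowest in both sets. The medians were 6.99, 7.48, 4.26 and 6.91 with an overlap and 5.43, 4.48, 3.06 and 5.21 without one. The mean log2(TPM + 1) of the genes with an overlap was also lowest there, at 3.28, 3.31, 2.97 and 3.22. The unlike course was thus seen in the summed CPM and not in these per-gene measures. The part of the shift over the whole table in the members' sums was not tested.

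**Figure D4:**
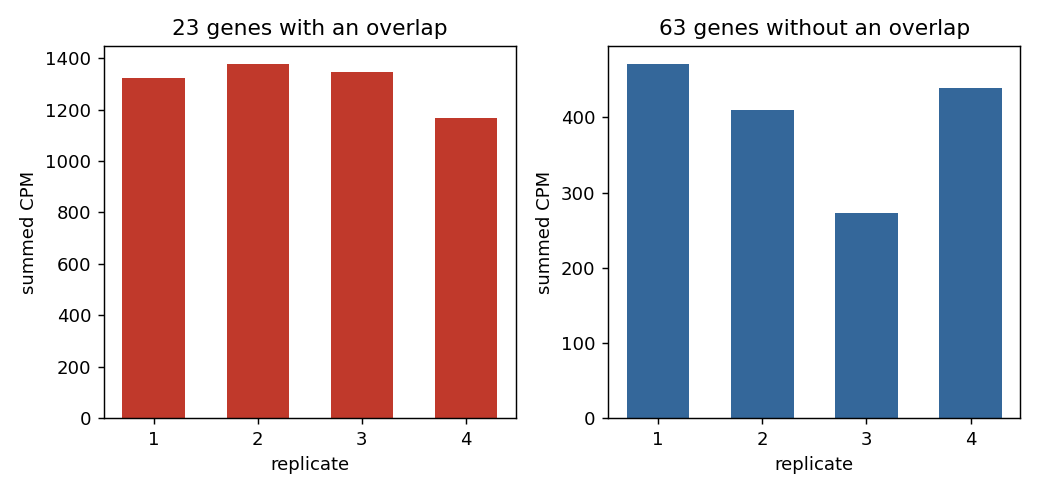
Summed CPM of the 23 genes with an exon overlap (left) and the 63 without (right), 1 bar per library, with separate axes that both start at 0. Replicate 3 stands at 1346 CPM on the left and at 273 on the right, the lowest of the 4 there. The median TPM per gene, not drawn, was lowest in replicate 3 in both sets.

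Other genes of the pathway were read from 4 lists. Of 48 assembly factors, which help build the complexes and are not part of them, 16 reached 1 TPM in all libraries, and of 17 regulators of mitochondrial genes 10 did. Of 13 citric acid cycle genes 11 did, and of 10 carriers and channels 6. The background is the same 21.8% of protein-coding genes, beside 33.3% of the assembly factors. No gene of these lists was called by the edgeR test (0 of 10, 8, 8 and 5 tested). The opposite row was higher in every library for 10 of 15 assembly factors with an overlap, 4 of 8 regulators, 2 of 2 citric acid cycle genes and 1 of 2 carriers, beside the same background of 49.0%.

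The 3 highest assembly factors each overlapped a row on the other strand. Cox20, an assembly factor of complex IV, had 689, 622, 461 and 336 counts and shares 804 bases with Hnrnpu, which had 1329, 1212, 1231 and 1022. Sco2, a copper chaperone of complex IV, had 510, 456, 495 and 346 against 1020, 870, 914 and 701 for Ncaph2. Surf1 had 591, 580, 640 and 419 against 303, 291, 279 and 209 for Surf2, and is a case of the reverse order. The highest carrier gene had no overlap: Slc25a5, which exchanges ADP and ATP, had 84, 66, 45 and 53 (27.3 TPM ± 6.32) and Mdh2, malate dehydrogenase of the citric acid cycle and also without an overlap, had 56, 27, 23 and 37 (7.33 ± 2.92; SD, n = 4).

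Promoter sequences of RefSeq (GRCm38.p6, 250 bases before to 50 after a start) were found by symbol for 67 of the 86 genes. The 10-letter motif of NRF1, a factor known for control of respiratory genes, is the run in capitals in the windows labelled NRF1 below. It reads alike on both strands and occurred in 5 of the 67 (7.46%), against 1.52% of 16469 protein-coding genes and 1.07% of all 27025 genes with such a sequence. The core CCGGAAG of ETS factors such as Gabpa occurred on either strand in 16 of the 67 (23.9%), against 13.4% and 9.93%. These letters describe the windows and do not show that a factor bound there. Atp5k and Cox6a1 held both motifs, shown with the motif in capitals on the strand of the gene, where the ETS core reads in reverse.
Atp5k, NRF1 motif at chr5:108434431-108434458, minus strand: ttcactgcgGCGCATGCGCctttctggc
Atp5k, ETS core at chr5:108434372-108434396, minus strand: tcagttgagCTTCCGGcgcgaaggt
Cox6a1, NRF1 motif at chr5:115349102-115349129, minus strand: aggaacgggGCGCATGCGCgctctcgct
Cox6a1, ETS core at chr5:115348959-115348983, minus strand: ccatttccgCTTCCGGcgcgccggt
The counts of Atp5k were 16, 9, 13 and 11 (14.4 TPM ± 2.98; SD, n = 4), and those of Cox6a1 stand with complex IV. Motifs and counts were not compared across genes.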

How the data were processed

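Per the labels, the assay is total RNA, while a linked library protocol names polyA+ RNA. The authors' deposited tables give raw whole-number counts for each gene beside its exon length. Per the file headers, featureCounts 1.4.6-p4 counted fragments with both ends mapped at strand setting 1 (which strand the kit reads is not given in the labels), on GENCODE vM13 and mm10, without an option for multi-mapping reads. STAR is named there with no version. GENCODE vM21 gave symbols, types and gene parts for 50376 of 50600 rows. TPM and CPM were computed from the counts. An overlap is at least 1 shared exon base on the other strand. Totals were 1785970 to 2271993, and floors describe counting error alone, as PCR copies cannot be told from separate molecules. The 6 pairs of libraries gave chi-square values of 1.57 to 2.58 for each degree of freedom (2 rows, CT010467.1 and Gm42418, left out), so all were kept as separate replicates.

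Variation between replicates was tested with edgeR 4.0.16 (limma 3.58.1, R 4.3.3) as goodness of fit of an intercept-only model with trended dispersion, TMM and filterByExpr, Benjamini-Hochberg adjusted over all genes at 0.05, and was tested on simulated data. DESeq2 1.42.0 was an alternative. Sign flips gave exact tests. Other steps ran in Python 3.11.15 with SciPy 1.17.1, numpy 2.4.6, Matplotlib 3.10.9 and pandas 2.3.3.

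Named genes were the 3 highest per complex, core subunits, isoform pairs, genes at 0, and genes whose opposite row averaged at least 10 counts. The low opposite rows of Cox6a2 and Atp5f1, as well as Uqcrq, Atp5k, the list genes and the 5 highest genes as a set were picked after values were seen. Some genes that the rule would name are not reported here singly and enter only the counts and sums. Members and lists were chosen with earlier results of these data known.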

Additional observations from a re-analysis of the deposited data

Results flagged for a closer look

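Uqcrq, a small subunit of complex III, had 12, 4, 5 and 4 counts, or 4.33, 1.54, 1.86 and 1.94 TPM in replicates 1 to 4. Replicate 1 stood apart from the others: its gap was 0.856 of the whole range, above Dixon's 95% critical value for 4 samples. Of 94 values checked in this way, which did not take in every gene, it was the only one. Chance marks about 1 in 20, so a single one carries little weight.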

How the results depend on the processing

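No paired analysis was possible because all libraries belong to 1 group. Depth limits the low genes, of which 11 had at most 3 counts in every library. The number at 1 TPM in all libraries (65) was 56 by more than 3 counts, 68 at 0.5 TPM and 65 to 71 without each replicate. As shares of counts, complexes I, II, III, IV, V and cytochrome c held 15.0%, 1.49%, 3.89%, 9.15%, 69.8% and 0.619%. With genes without an overlap they held 30.3%, 3.90%, 17.7%, 21.5%, 25.4% and 1.25%. Without Atp5f1, an alternative added after the counts were seen, complexes I to V held 38.9%, 1.82%, 10.2%, 16.8% and 31.7%. Leaving out each replicate gave 28.7% to 29.6% for complex I and 47.7% to 50.1% for complex V. The share of counts in genes with an overlap (76.7%) was 64.6% of TPM and 59.5% without Atp5f1, and 74.5% to 78.0% without each replicate. The opposite row was higher in 9 of 14 genes when it had no other partner, against 18 of 23 in counts and 16 of 23 in TPM. The 14 are fewer genes by construction, but the share was also lower, and why was not tested. With 0.1 added to TPM in place of 1, the log2 ratios of Cox6a1, Cox6b1 and Cox8a over Cox6a2, Cox6b2 and Cox8b were 6.75, 6.73 and 5.38, and with the lower gene at 3 counts or more 1.73, 3.14 and 0.52, against 3.55, 4.03 and 2.91. Cox7a2 over Cox7a1 (log2 0.35) ran from -0.13 without replicate 1 to 0.70. The cause was not tested where a value moved and no construction shows it.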
